A study of Mus musculus with 4 samples.

Results

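Interferon-stimulated genes, the antiviral and immune genes that cells switch on when they sense an interferon, were followed across 6 classes of mouse liver cells after repeated injection of carbon tetrachloride (CCl4), a hepatotoxic solvent whose repeated use scars the liver. The 40 members were a list fixed by gene name, and 39 of them had a column among the 25149 genes of the 4 count tables. Mx2, a polymorphic pseudogene in the annotation, was not analysed here. The study profiled liver cells other than hepatocytes by single-cell RNA sequencing on the BD Rhapsody platform, which counts captured transcripts by unique molecular identifiers (UMIs). All 4 mice were wild-type males aged 8 to 10 weeks. The 2 CCl4 mice received 10 µl per g of body weight of CCl4 mixed 1 to 9 with corn oil by intraperitoneal injection 2 times a week for 5 weeks, and the 2 corn oil mice received the vehicle on the same schedule. Livers were taken 48 hours after the last injection, and the labels name 1 mouse per library. The labels name no transgene and no other agent in either group.

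Type I interferons bind a receptor on nearly every cell, and the kinases attached to it activate transcription factors. A complex that holds STAT2 and IRF9 then binds the interferon-stimulated response element (ISRE) in target promoters, while the response to interferon gamma runs mainly through a different element, GAS. The targets include sensors of viral RNA and DNA, enzymes that degrade or modify RNA, the ubiquitin-like protein ISG15, and IRF7, which raises interferon production further. Many of them are also present at a low level in resting liver macrophages and sinusoidal endothelium.

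The response element was looked for in the promoters of the members as a description. The list names known interferon targets, so finding the element in them follows from the choice of list and is no result of these data. In RefSeq promoters of GRCm38.p6, running from 250 bases before to 50 bases after each start site, 30 of the 40 members had an entry. The ISRE core, which is GAAA followed after any 2 bases by another GAAA, searched on both strands with overlapping matches counted, was found in 18 of these 30 members (60%) and in 1079 of 27025 genes (3.99%). The GAS core TTCNNNGAA, which reads the same on both strands in its fixed letters, was found in 6 of the 30 (20%) and in 2582 genes (9.55%). The 5 stretches printed here belong to Isg15, called in the most classes, to Bst2, whose change differed between stellate and endothelial cells, and to the 3 members with the largest ratios in the monocyte gate among those with a corn oil UMI there (Ifit3, Ifit1 and Rsad2). All 5 hold the core, while 12 of the 30 members with an entry do not, among them Oasl1, which had no corn oil UMI in that gate and the largest fitted fold change. Each is the 180 bases before the start site, read 5′ to 3′ on the strand of the gene, with matches to the core in capitals. A match on the opposite strand reads TTTC, 2 free bases and TTTC again.
Isg15, chr4:156200819-156200998, minus strand: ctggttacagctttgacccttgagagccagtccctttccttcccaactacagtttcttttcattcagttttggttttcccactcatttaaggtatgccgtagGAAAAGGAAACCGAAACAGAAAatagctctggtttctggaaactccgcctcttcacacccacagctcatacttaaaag
Bst2, chr8:71537473-71537652, minus strand: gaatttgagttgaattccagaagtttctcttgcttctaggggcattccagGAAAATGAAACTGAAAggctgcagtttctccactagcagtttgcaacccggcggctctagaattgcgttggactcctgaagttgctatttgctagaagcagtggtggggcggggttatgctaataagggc
Ifit3, chr19:34583349-34583528, plus strand: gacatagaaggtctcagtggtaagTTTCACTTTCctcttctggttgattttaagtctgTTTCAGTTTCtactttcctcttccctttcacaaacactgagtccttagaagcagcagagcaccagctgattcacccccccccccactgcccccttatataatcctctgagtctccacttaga
Ifit1, chr19:34640709-34640888, plus strand: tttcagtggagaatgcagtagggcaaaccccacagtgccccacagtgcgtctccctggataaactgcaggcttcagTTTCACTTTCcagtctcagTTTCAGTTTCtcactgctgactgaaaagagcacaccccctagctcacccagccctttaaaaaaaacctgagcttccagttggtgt
Rsad2, chr12:26456453-26456632, minus strand: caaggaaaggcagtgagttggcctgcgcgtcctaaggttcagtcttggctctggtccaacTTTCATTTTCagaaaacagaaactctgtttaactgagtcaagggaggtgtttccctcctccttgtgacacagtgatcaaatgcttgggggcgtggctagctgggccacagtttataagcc
In Isg15 there were 3 overlapping matches, starting 78, 72 and 66 bases before the start site. Bst2 had 2 overlapping matches (130 and 124 bases before it), Ifit3 had 2 separate ones (156 and 122), Ifit1 had 2 (104 and 85) and Rsad2 had 1 (120). Members of a family lie side by side in the genome (GRCm38, GENCODE vM21), with Ifit1, Ifit2 and Ifit3 between bases 34550694 and 34650009 of chromosome 19, Rsad2 and Cmpk2 between 26442746 and 26479837 of chromosome 12, and Gbp2, Gbp3 and Gbp7 between 142530342 and 142638008 of chromosome 3.

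Cells were kept from 200 detected genes upward and up to 25% mitochondrial UMIs, and were sorted into classes by gates on UMIs of marker genes. The gates were endothelial (Kdr, Ptprb and Egfl7), stellate (Reln, Colec11 and Lrat), Kupffer (Clec4f), monocyte (Chil3, F13a1 and Vcan with little Clec4f), plasmacytoid dendritic cell or pDC (Siglech) and T/NK (Cd3e, Cd3d, Ncr1 and Klre1). Cells that passed 2 gates were dropped, which removed 5.91% to 13.3% of the kept cells of a library. The libraries held 5948 to 7663 cells and 45408857 to 55529871 UMIs, and pairs of libraries shared 48 to 74 cell indices. Per the file headers, the CCl4 1 table came from a separate pipeline run from the other 3, and a run effect cannot be told apart from that mouse. Wherever 4 values follow each other, those of the corn oil mice (1, then 2) come before those of the CCl4 mice (1, then 2). The endothelial gate held 5191, 5293, 3051 and 2765 cells, and the stellate gate 173, 144, 455 and 142. The Kupffer gate held 213, 220, 228 and 223 cells, and the monocyte gate 41, 23, 909 and 1336. The pDC gate held 96, 55, 123 and 92 cells, and the T/NK gate 171, 218, 49 and 69. Summed UMIs of a class ran from 185330 (pDC, corn oil 2) to 29546485 (endothelial, corn oil 1).

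Markers that were not used for gating were high in 5 of the gates. Each list, without its gate genes, summed to 91.0 to 113 UMIs per 10000 in endothelial cells, 128 to 283 in stellate, 108 to 166 in Kupffer, 48.5 to 70.7 in pDC (with Bst2 among them) and 28.2 to 47.8 in T/NK cells. The pDC gate also held Ly6c2, Ccr2 and Plac8, the markers used here for monocytes, at 57.4 to 66.5 per 10000 in corn oil and 68.7 to 72.6 in CCl4, which is above its pDC markers in CCl4 (48.5 to 61.6) and above the CCl4 monocyte gate. Mouse pDC are known to carry Ly6C as well, so these markers do not tell the 2 classes apart. Markers of conventional dendritic cells stood at 15.3 to 29.0 and those of B cells at 12.4 to 16.2 per 10000 in the pDC gate. The monocyte gate went against its name in corn oil. Ly6c2, Ccr2 and Plac8, which mark classical monocytes, summed to 5.45 to 8.25 UMIs per 10000 in the corn oil cells of that gate and to 40.1 to 53.7 in its CCl4 cells. Genes of peritoneal macrophages (Gata6, Prg4, Icam2 and Alox15) had a UMI in 46.3% and 47.8% of the corn oil cells of the gate and in 6.27% and 8.76% of its CCl4 cells. Prg4 stood at 975 and 1729 CPM (UMIs of a gene per 1000000 UMIs of the class in that mouse) there in corn oil and at 10.6 and 19.7 in CCl4. Kupffer markers other than Clec4f summed to 20.6 to 31.6 per 10000 in these corn oil cells and to 1.89 to 2.22 in CCl4. Other lists moved in this gate too, with neutrophil markers at 0.202 to 0.271 in corn oil and 3.78 to 5.92 in CCl4, cholangiocyte markers (chiefly Spp1) at 17.6 to 22.2 and 6.07 to 6.20, and stellate markers at 6.11 to 24.2 and 3.53 to 4.10. The corn oil cells are therefore called "cells of the monocyte gate", and each main result on them is also given for the cells that had at least 3 UMIs of the 3 monocyte markers and none of the peritoneal genes. That narrower set, added after these values had been seen, held 16, 8, 797 and 1184 cells. In the T/NK gate, markers outside the gate (Nkg7, Gzma, Trac and Klrb1c) summed to 43.3 to 47.8 per 10000 in corn oil and 28.2 to 28.8 in CCl4. The stellate gate of corn oil 1 also carried B-cell markers at 14.5 and erythroid ones at 12.7 per 10000, and stellate markers outside the gate stood at 262 to 283 per 10000 in corn oil and 128 to 156 in CCl4. A summed level cannot tell fewer expressing cells from less RNA per cell.

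Members were carried by every class in both groups, and their summed share was higher in both CCl4 mice than in both corn oil mice in the endothelial, monocyte, pDC and T/NK gates. Endothelial cells gave 29.3, 27.9, 35.3 and 32.7 member UMIs per 10000 UMIs of the class. In pDC the values were 25.004, 24.1, 37.0 and 35.8, and in T/NK cells 20.8, 19.3, 24.8 and 22.5. Stellate cells gave 33.2, 23.7, 36.9 and 30.3, and Kupffer cells 40.9, 33.5, 41.6 and 38.2, so in these 2 classes the corn oil and CCl4 mice overlapped. The monocyte gate had the widest gap, with 7.45, 6.85, 50.3 and 52.6. Among its cells with monocyte markers the share was 11.7, 17.1, 53.1 and 55.3, and among the rest of the gate 6.43, 4.79, 35.1 and 37.2. No p is given for these sums, since 2 mice against 2 cannot go below 0.333 in a two-sided exact permutation test.

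**Figure D1:**
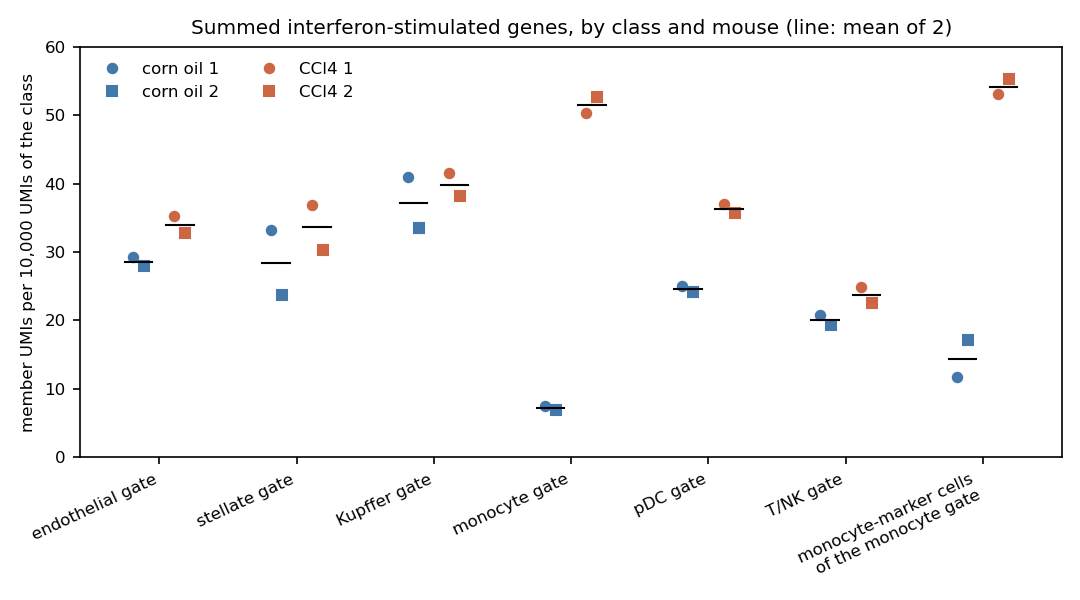
Summed UMIs of the 39 measured members per 10000 UMIs of each gated class, with 1 point per mouse and a line at the mean of 2. The last position shows the cells of the monocyte gate with monocyte markers; the CCl4 points of the monocyte gate lie at 50.3 and 52.6 and its corn oil points at 7.45 and 6.85, the lowest of any class.

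UMIs were summed per mouse and class and tested with edgeR's quasi-likelihood test, with Benjamini-Hochberg adjustment over all genes of the class, and a member is called at an adjusted p under 0.05. In the monocyte gate 33 of 39 members were higher after CCl4 and none lower, against 2.37% of all genes tested called higher and 2.88% called lower. Of the 39 tested members, called or not, 1 had no corn oil UMI in the gate and 12 had 1 to 3. Such members could pass the filter on low counts only through the CCl4 mice. Among the 26 members with more than 3 corn oil UMIs, 22 were higher and none lower, against 2.33% of the genes with as many called higher. In endothelial cells 6 of 39 were higher and 1 lower, against 3.12% and 2.75% of all genes. The stellate gate had 4 of 35 tested members higher and none lower (5.69% and 5.21% of all genes), and Kupffer cells had 5 of 39 higher and 2 lower (7.46% and 7.30%). In pDC 3 of 16 tested members were higher and none lower (0.257% and 0.205%), and in T/NK cells 1 of 27 was higher and none lower (0.690% and 0.610%). The other members had too few UMIs for the filter, which left out 4 in stellate cells, 23 in pDC and 12 in T/NK cells. The median log2 fold change of the tested members was 3.09 in the monocyte gate, 0.77 in pDC, 0.25 in endothelial, 0.11 in T/NK, 0.08 in Kupffer and 0.07 in stellate cells. Both CCl4 mice lay above both corn oil mice for 38 tested members in the monocyte gate (35.1% of all genes), 13 in Kupffer (34.3%), 12 in pDC (19.1%), 12 in T/NK (20.2%) and 8 in stellate cells (30.9%). They lay below for 0, 6, 0, 3 and 6 members, beside 21.7%, 25.8%, 15.9%, 23.8% and 24.9% of all genes. Over all genes tested the median lay between -0.01 and 0.04 in every class. Several members have close relatives in the genome (the OAS, IFIT, PYHIN, GBP and Schlafen genes), and the sources used here do not say how reads that match more than 1 copy were counted, so the split between copies is uncertain.

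**Figure D2:**
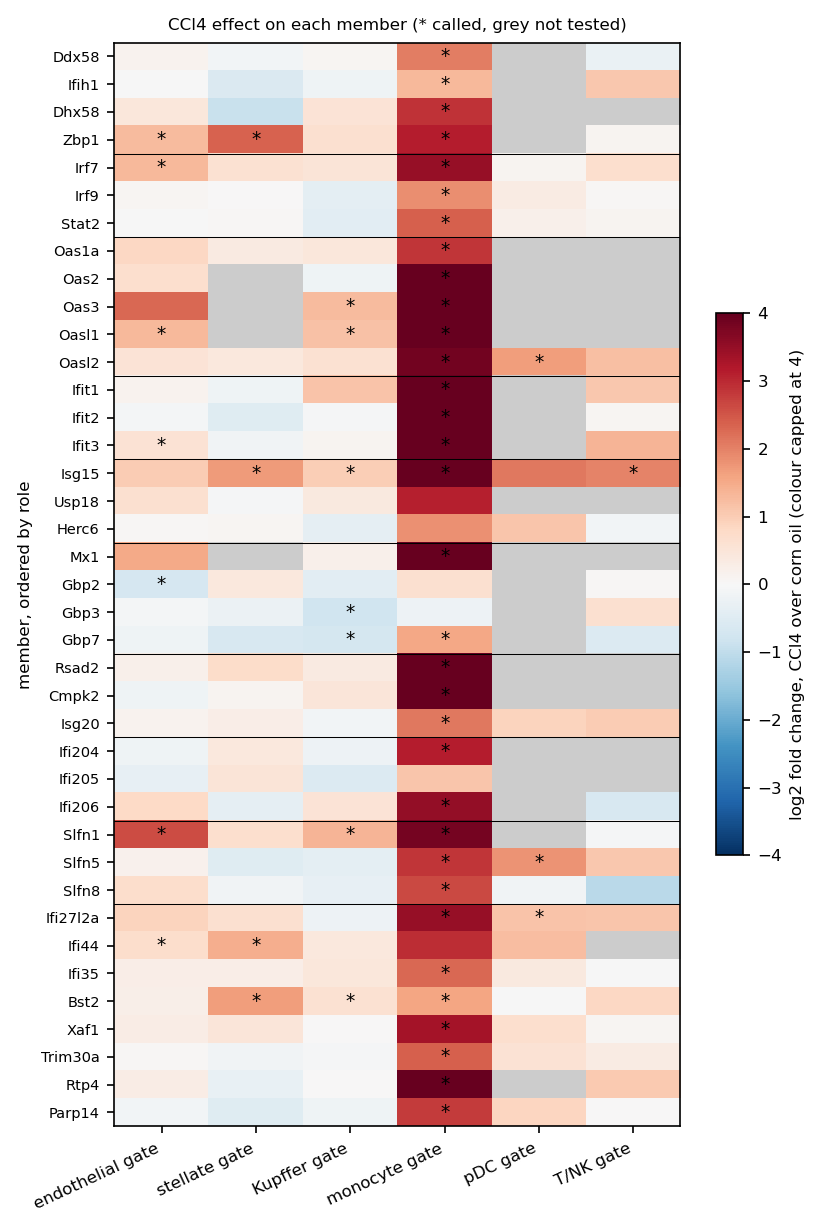
Log2 fold change of CCl4 over corn oil for 39 members (rows, ordered by role) in 6 gated classes (columns); an asterisk marks an adjusted p under 0.05 and grey a member not tested. The monocyte column holds 33 asterisks, all higher, and Isg15 is the only member with an asterisk in 3 of the other columns; the colour of a monocyte cell with no corn oil UMI depends on the prior count of the fit.

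Cells of the monocyte gate showed the largest difference between the groups, and every role among the members had at least 1 call. In the IFIT family and the ISG15 system the called members had only 1 to 3 corn oil UMIs each. They could pass the filter on low counts only through the CCl4 mice. All 3 IFIT genes, whose proteins bind viral RNA caps and ends, and all 5 OAS family genes were called higher in the CCl4 cells of the gate. Of the OAS genes, Oas2, Oas3 and Oasl1 also had at most 3 corn oil UMIs each, so the same limit of the filter holds for them. The sensors Ddx58 (RIG-I), Ifih1 (MDA5), Dhx58 and Zbp1, and the factors Irf7, Irf9 and Stat2 were called higher there too. Rsad2, which makes the antiviral nucleotide ddhCTP through the enzyme viperin, gave 1, 0, 720 and 880 UMIs. Its ratio of CCl4 over corn oil was 103, with a 95% counting interval of 18.5 to 4078. Ifit1 gave 0, 1, 489 and 550 UMIs, a ratio of 67.0 (12.0 to 2649), and Ifit3 gave 0, 1, 392 and 689, a ratio of 69.7 (12.5 to 2756). For both, edgeR's adjusted p was 0.0145, and for Rsad2 it was 0.00791. Rtp4, a chaperone that is induced by interferon, gave 1, 2, 850 and 1281 UMIs, a ratio of 45.8 (15.7 to 222; edgeR adjusted p = 0.00828). Cmpk2, a nucleotide kinase encoded next to Rsad2, gave 1, 0, 301 and 329 UMIs, a ratio of 40.6 (7.26 to 1607; edgeR adjusted p = 0.0162). Oas2, a sensor of double-stranded RNA that activates RNase L, gave 1, 0, 182 and 259 UMIs, a ratio of 28.4 (5.08 to 1126; edgeR adjusted p = 0.0185). Ifit2 gave 1, 1, 306 and 557 UMIs, a ratio of 27.8 (7.68 to 230; edgeR adjusted p = 0.0132). Oasl1 had no UMI in either corn oil mouse and 134 and 279 in CCl4, which makes it at least 8.88-fold higher against a floor of 3 UMIs over the group (edgeR adjusted p = 0.0401). Both corn oil mice lay below both CCl4 mice for each of these 8, and counting intervals and bounds cover counting error only. With at most 3 corn oil UMIs each, these 8 could pass the filter only through the CCl4 mice, where they are high.

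The 5 members of highest mean CPM in the monocyte gate had more corn oil UMIs than these 8. Values from here on are in CPM, and they count molecules without scaling to transcript length. Slfn5, a Schlafen protein of the nucleus, stood at 65.8, 101, 605 and 605 CPM (log2 fold change 2.85, SE 0.26, edgeR adjusted p = 0.0109). Ifi204, a PYHIN sensor of DNA, stood at 59.0, 30.9, 409 and 468 CPM (log2 3.14, SE 0.31, edgeR adjusted p = 0.0114). Trim30a, a TRIM protein that restrains inflammatory signalling, stood at 54.0, 92.8, 397 and 373 CPM (log2 2.40, SE 0.28). Ifi27l2a, a small mitochondrial protein, stood at 48.9, 11.6, 329 and 482 CPM, and Oasl2 at 35.4, 11.6, 374 and 423 CPM. None of these 5 overlapped between the groups. The 6 members that did not pass the test were Gbp2, Gbp3, Ifi205, Ifi44, Herc6 and Usp18. Usp18, which removes ISG15 from proteins, had an edgeR adjusted p of 0.0505 and Herc6, which attaches it, one of 0.0517. The guanylate-binding protein Gbp3 was the 1 member with a negative value here, at 30.4, 54.2, 34.0 and 36.1 CPM (log2 -0.22, SE 0.32).

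Restricting the gate to cells with monocyte markers kept the direction and cut the number of calls. In that set 16 of 39 members were higher and none lower, against 0.916% of all genes called higher, and 15 of the 16 were also called in the whole gate. All 39 fold changes were positive, with a median log2 of 2.52 beside 0.23 over all genes. Rsad2, Ifit1, Ifit3 and Rtp4 passed the test in this set too, while Cmpk2, Oas2, Ifit2 and Oasl1 did not, with edgeR adjusted p-values of 0.17, 0.35, 0.14 and 0.20. The corn oil side of that set holds 115481 and 43243 UMIs, so a member at 1 UMI stands at a level that the depth barely resolves. Without CCl4 1 the gate had 17 members called and without CCl4 2 it had 16, and the part of the peritoneal and Kupffer genes in the difference was not tested beyond this set. The neutrophil, cholangiocyte and stellate markers named with the gate were not tested for their part either. Of the 12 members with more than 3 corn oil UMIs in the narrower set, 7 were called higher and none lower, against 1.09% of the genes with as many.

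Endothelial cells, the class with the most cells, showed rises in 6 members and a fall in 1. Irf7, the transcription factor that amplifies interferon responses, stood at 33.6, 24.9, 68.5 and 83.3 CPM (log2 1.31, SE 0.18, edgeR adjusted p = 0.0128). Oasl1, which restrains translation of Irf7, stood at 5.52, 4.59, 12.4 and 14.0 CPM (log2 1.31, SE 0.21, edgeR adjusted p = 0.0208). Ifi44 stood at 115, 102, 188 and 179 CPM (log2 0.69, SE 0.14, edgeR adjusted p = 0.0356), and Ifit3 at 110, 116, 165 and 189 CPM (log2 0.58, SE 0.13, edgeR adjusted p = 0.0486). Zbp1, a sensor of Z-form nucleic acids that can trigger cell death, stood at 3.82, 3.47, 10.5 and 7.81 CPM (log2 1.27, SE 0.27, edgeR adjusted p = 0.0450). Slfn1, a Schlafen gene of lymphocytes and myeloid cells, stood at 1.52, 1.27, 10.2 and 7.66 CPM (log2 2.61, SE 0.31, edgeR adjusted p = 0.00759). In each of the 6 both CCl4 mice lay above both corn oil mice. The Slfn1 level in CCl4 endothelial cells was 2.28% of that in the CCl4 monocyte gate, and that of Zbp1 8.43%. Monocyte markers outside the gate genes summed to 0.372 to 0.609 per 10000 in corn oil endothelial cells and 0.965 to 1.37 in CCl4. In stricter gates Slfn1 was as far apart (log2 3.09), and the part of monocyte RNA in it was not tested further.

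Gbp2, a guanylate-binding protein induced most by interferon gamma, was the 1 member that fell in endothelial cells, at 77.8, 84.8, 52.0 and 55.2 CPM (log2 -0.67, SE 0.13, edgeR adjusted p = 0.0359). The 5 members of highest mean CPM in endothelial cells did not pass the test. They were Slfn5 at 559, 514, 721 and 534 CPM, Bst2 at 188, 248, 286 and 250, Ifi204 at 195, 172, 176 and 165, Ifit2 at 151, 191, 153 and 185, and Gbp7 at 181, 173, 160 and 165. Slfn5, Ifi204 and Ifit2 overlapped between the groups, and so did Stat2, Irf9, Ddx58 and Ifih1. In all, 25 of 39 members had both CCl4 mice above both corn oil mice and 2 had them below, where 34.1% and 20.6% of all genes did. Without CCl4 1 none of the members was called, and without CCl4 2 the number was 2, Slfn1 among them. Ifi44, Gbp2 and Ifit3 also lost their calls without corn oil 2, and Ifit3 without corn oil 1.

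In stellate cells, the vitamin A-storing pericytes that turn into matrix-producing cells in fibrosis, 4 of the 35 tested members rose. Bst2, also called tetherin, which holds budding virus at the cell surface, stood at 68.4, 63.7, 256 and 178 CPM (log2 1.68, SE 0.24, edgeR adjusted p = 0.00251). Zbp1 stood at 12.98, 8.89, 67.9 and 47.1 CPM (log2 2.35, SE 0.35, edgeR adjusted p = 0.00332). Ifi44 stood at 36.6, 48.9, 119 and 120 CPM (log2 1.44, SE 0.24, edgeR adjusted p = 0.00492), and Isg15, the ubiquitin-like modifier, at 53.1, 31.1, 184 and 95.0 CPM (log2 1.70, SE 0.35, edgeR adjusted p = 0.0152). These 4 did not overlap between the groups and kept their calls in every alternative that was run, each left-out mouse included. Ifit3 stood at 256, 158, 221 and 163 CPM and Ifit1 at 143, 54.8, 117 and 62.0, with the groups overlapping in both. Of the members with the highest mean CPM, Ifi27l2a stood at 327, 244, 337 and 580 CPM, Slfn5 at 314, 270, 247 and 181, and Oasl2 at 178, 138, 265 and 168. Slfn5 was lower in both CCl4 mice without passing the test (log2 -0.48, SE 0.21), Ifi27l2a was higher in both without passing it, and Oasl2 overlapped. Monocyte markers summed to 4.93 to 7.31 per 10000 in corn oil stellate cells and 8.85 to 10.6 in CCl4, and their part in the 4 rises was not tested. Without corn oil 1, the library with B-cell and erythroid RNA in this gate, 12 members were called.

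Kupffer cells, the resident macrophages of the liver sinusoids, had the highest summed level in corn oil and changed in both directions. Oas3, the family member that senses long double-stranded RNA, stood at 22.9, 14.4, 39.3 and 55.9 CPM (log2 1.26, SE 0.27, edgeR adjusted p = 0.0167), and Oasl1 at 37.6, 19.9, 83.1 and 53.3 CPM (log2 1.16, SE 0.31, edgeR adjusted p = 0.0347). Isg15 stood at 18.8, 21.5, 49.9 and 34.2 CPM (log2 0.99, SE 0.27, edgeR adjusted p = 0.0385). Bst2 stood at 139, 139, 247 and 204 CPM (log2 0.62, SE 0.16, edgeR adjusted p = 0.0312). Slfn1 stood at 10.1, 6.07, 24.3 and 20.1 CPM (log2 1.36, SE 0.32, edgeR adjusted p = 0.0239), which in CCl4 is 5.68% of its level in the monocyte gate. Monocyte markers summed to 1.82 to 2.62 per 10000 in corn oil Kupffer cells and 4.13 to 4.62 in CCl4, and their part in these rises was not tested. In stricter gates Slfn1 and Isg15 lost their calls (edgeR adjusted p = 0.0814 and 0.0664). For Kupffer cells those gates limit endothelial UMIs only, so they do not bear on monocyte RNA. Of the 3 guanylate-binding proteins 2 fell. Gbp3 stood at 92.2, 108, 58.8 and 61.3 CPM (log2 -0.81, SE 0.17, edgeR adjusted p = 0.0153) and Gbp7 at 179, 163, 123 and 99.3 CPM (log2 -0.70, SE 0.16, edgeR adjusted p = 0.0229), while Gbp2 stood at 76.2, 96.6, 73.2 and 61.6 CPM without passing the test. The 5 members of highest mean CPM in Kupffer cells did not pass it either. They were Slfn5 at 376, 387, 331 and 275 CPM, Ifi204 at 363, 317, 314 and 311, Trim30a at 319, 262, 313 and 280, Ifi27l2a at 371, 244, 226 and 330, and Irf7 at 288, 177, 307 and 394. Trim30a and Ifi27l2a overlapped between the groups. The number of Kupffer calls fell from 7 to 1 without CCl4 1 and to 3 without CCl4 2, and was 14 without corn oil 1 and 9 without corn oil 2.

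In pDC, the cells best known for making type I interferon, 3 of the 16 members with enough UMIs rose. Slfn5 stood at 86.0, 97.1, 311 and 316 CPM (log2 1.78, SE 0.24, edgeR adjusted p = 0.00508), and it was called in every alternative. Oasl2 stood at 31.3, 43.2, 117 and 111 CPM (log2 1.67, SE 0.34, edgeR adjusted p = 0.0447) and Ifi27l2a at 115, 146, 282 and 288 CPM (log2 1.15, SE 0.24, edgeR adjusted p = 0.0452). For these 3 the groups did not overlap, but Oasl2 and Ifi27l2a lost their calls with DESeq2, at a limit of 15% mitochondrial UMIs, in stricter gates and without corn oil 1 (edgeR adjusted p = 0.14 for both), and Ifi27l2a also without CCl4 2. Bst2, a defining surface protein of pDC, stood at 763, 971, 1067 and 660 CPM, overlapped between the groups and did not pass the test (log2 -0.005, SE 0.21). Trim30a stood at 560, 329, 720 and 652 CPM, Stat2 at 208, 183, 185 and 277, and Irf7 at 135, 135, 136 and 159. None of these 3 passed the test, and Stat2 overlapped between the groups. Of the 39 members, 23 were under the filter in pDC, among them all 3 IFIT genes and Rsad2, and were not tested in pDC alone. Without the filter 5 members were called. Kupffer markers stood at 0.0521 to 0.108 per 10000 in corn oil pDC and 1.29 to 1.42 in CCl4, and markers of conventional dendritic cells at 22.8 to 29.0 and 15.3 to 15.9. Their part in the pDC values was not tested.

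Only Isg15 was called in T/NK cells, at 12.0, 19.0, 68.3 and 56.1 CPM (log2 1.99, SE 0.43, edgeR adjusted p = 0.0495), and it lost its call with DESeq2, at 15% mitochondrial UMIs, in stricter gates and without corn oil 1 or CCl4 1. The members of highest mean CPM in this class were Gbp7 at 356, 279, 247 and 187 CPM, Slfn1 at 234, 144, 137 and 221, and Trim30a at 129, 181, 179 and 203. Ifi27l2a stood at 141, 80.9, 247 and 221 CPM and Ifi206, a PYHIN gene, at 144, 111, 71.6 and 90.4. None of the 5 passed the test, although Gbp7 and Ifi206 were lower and Ifi27l2a higher in both CCl4 mice. The gate joins T and NK cells. Cd3e, a T-cell gene, stood at 713, 925, 436 and 455 CPM and Cd3d at 376, 332, 231 and 290. The NK gene Ncr1 stood at 119, 130, 182 and 115 and Klre1 at 385, 368, 172 and 405, so these 2 differed in CCl4 1. What part that has in the member values was not tested.

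Seen by member, Isg15 was called in the most classes. Its fold change was positive in all 6 classes and called in 3 outside the monocyte gate (stellate, Kupffer and T/NK), and its level in endothelial cells (26.1, 28.5, 73.6 and 42.0 CPM; edgeR adjusted p = 0.0768) and in pDC (13.02, 5.396, 45.9 and 47.9 CPM; edgeR adjusted p = 0.206) did not overlap between the groups either. Oasl1, Ifi44, Bst2, Zbp1 and Slfn1 were each called higher in 2 classes outside the monocyte gate. Ifit3, Oas3, Oasl2, Ifi27l2a, Irf7 and Slfn5 were called in 1, and the other 27 members, including Stat2, Irf9, Ifih1, Ddx58, Rsad2 and Mx1, in none. These counts depend on the filter on low counts. Isg15 was tested in all 6 classes, Rsad2 in 4, and Oasl1 and Mx1 in 3, the monocyte gate included. Oasl1 was called in each class where it was tested. How many of all genes were called in as many classes was not counted. The calls of lower level were those of Gbp2 in endothelial cells and of Gbp3 and Gbp7 in Kupffer cells. That is 1 of 39 and 2 of 39 members, beside 2.75% and 7.30% of all genes, so it is not a trait of the members. Nor did the guanylate-binding proteins fall everywhere. Gbp7 was called higher in the monocyte gate (30.4 to 30.9 CPM in corn oil, 84.3 to 102 in CCl4, log2 1.55), and Gbp2 had a positive fold change in 3 of 5 classes. Gbp3 and Gbp7 each had a positive one in only 1 of 5 classes, so most of their fold changes were negative.

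The class with the highest level differed from member to member. In corn oil Kupffer cells were highest for 14 of the 39 members, and for 9 of these both mice lay above both mice of the next class. Stellate and T/NK cells were highest for 7 each, pDC for 6, endothelial cells for 5 and the monocyte gate for none. In CCl4 the monocyte gate was highest for 16, 6 of them without overlap with the next class, ahead of stellate cells with 6, Kupffer cells and pDC with 5 each, T/NK cells with 4 and endothelial cells with 3. Irf7 was highest in Kupffer cells in both groups, followed in corn oil by pDC, stellate, endothelial, T/NK and monocyte-gate cells, of which endothelial and T/NK cells overlapped. Bst2 was highest in pDC, and Gbp7 in T/NK cells, in both groups. Slfn5 was highest in endothelial cells in both groups, but in CCl4 its range there (534 to 721 CPM) took in that of the monocyte gate (605 and 605). Zbp1 was highest in T/NK cells in corn oil, overlapping Kupffer cells, and in the monocyte gate in CCl4. These orders are a description, with 2 mice a group. The same counts were not made over all genes, so they do not show that the members favour a class. Depth differs too, with 1 UMI worth 3.87 CPM in the monocyte gate of corn oil 2 and 0.0338 in endothelial cells of corn oil 1.

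**Figure D3:**
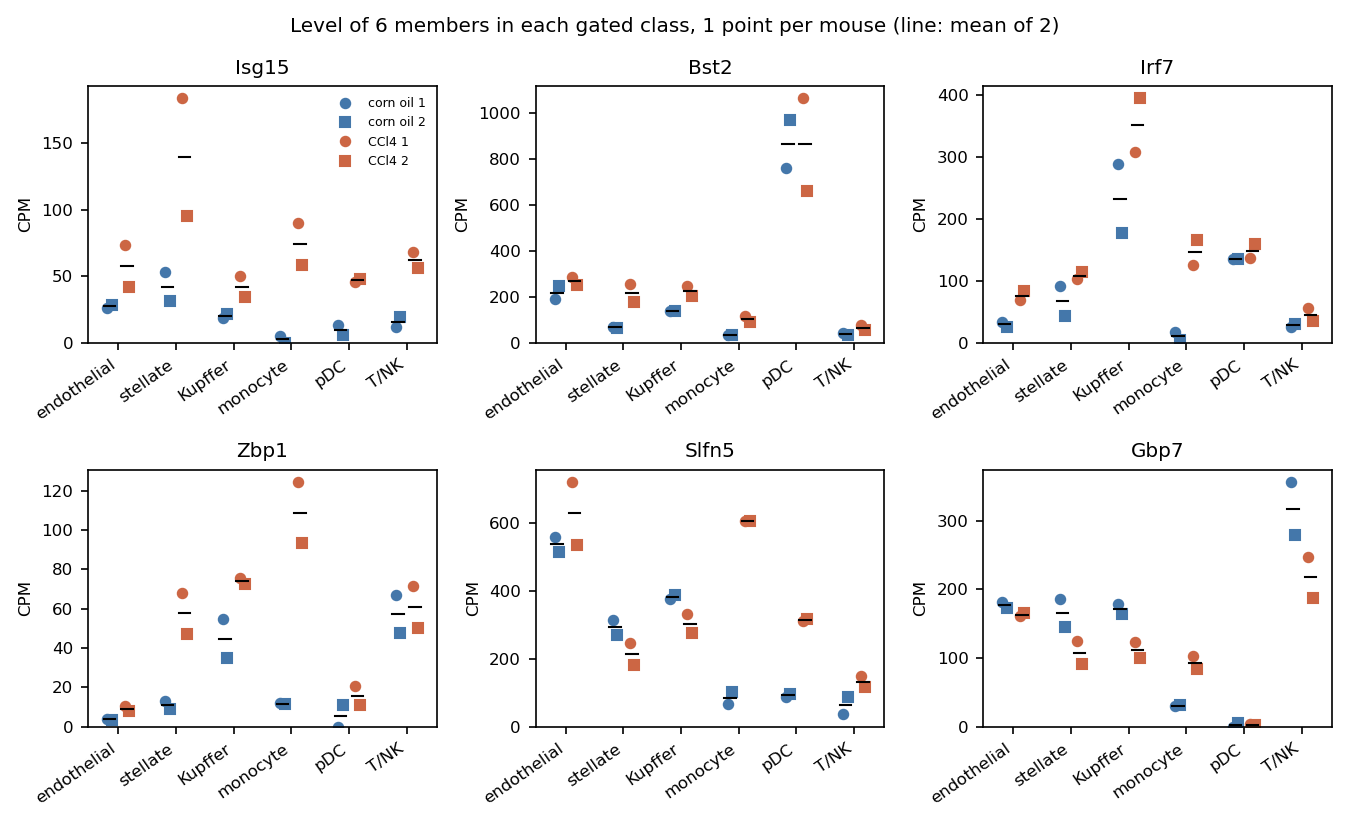
CPM of Isg15, Bst2, Irf7, Zbp1, Slfn5 and Gbp7 in each gated class, with 1 point per mouse and a line at the mean of 2. Isg15 is higher in both CCl4 mice in every class, Bst2 is far higher in pDC (660 to 1067 CPM) than elsewhere, and Slfn5 in the monocyte gate goes from 65.8 and 101 to 605 and 605.

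For 6 pairs of classes an interaction term in edgeR, fitted with mouse as a blocking factor, tested whether the CCl4 effect on each of the 39 members differed. The effect was larger in the monocyte gate than in endothelial cells for 25 members and smaller for none, against 1.70% of all genes called larger and 1.89% smaller. Against Kupffer cells it was larger for 32 and smaller for none (5.39% and 6.22% of all genes). With the cells that had monocyte markers these numbers were 18 and 21. Among the 26 members with more than 3 corn oil UMIs in the gate they were 18 and 22, against 2.09% and 5.58% of the genes with as many called larger. Over all genes the median difference was 0.14 (log2) for the first pair and -0.02 for the other, beside 2.57 and 2.91 over the members. Among the called members those with the largest differences were Rsad2, Ifit1, Cmpk2, Ifit3 and Rtp4 against endothelial cells, and Rsad2, Ifit3, Rtp4, Oas2 and Ifit1 against Kupffer cells, all of which had 1 to 3 corn oil UMIs in the gate. Without corn oil 1 the number against endothelial cells was 15, and Ifit1 was not called against Kupffer cells (log2 difference 2.76, edgeR adjusted p = 0.103).

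Outside the monocyte gate few members differed. Bst2 had a larger effect in stellate than in endothelial cells (log2 difference 1.43, SE 0.21, edgeR adjusted p = 0.00991), the 1 call among 39, where 1.16% of all genes were called larger and 1.02% smaller. In Kupffer cells the effect on Ifi27l2a (difference -1.04, SE 0.20, edgeR adjusted p = 0.0141) and Irf7 (-0.69, SE 0.16, edgeR adjusted p = 0.0321) was smaller than in endothelial cells, and none was called larger, where 3.21% of all genes were called smaller and 2.58% larger. Irf7 was not called when corn oil 1 or CCl4 1 was left out, and that of Ifi27l2a at 15% mitochondrial UMIs. In pDC the effect on Slfn5 was larger (1.70, SE 0.29, edgeR adjusted p = 1.27e-06) and that on Irf7 smaller (-1.11, SE 0.32, edgeR adjusted p = 0.0327) than in endothelial cells, with 0.856% of all genes called larger and 0.841% smaller. The Irf7 call was lost without each mouse in turn. Ifi204, which was under the filter in pDC alone, was also called in that pair, but its pDC values of 5.21, 5.40, 13.6 and 52.3 CPM rest on CCl4 2, without which the difference was 1.52 (edgeR adjusted p = 0.94), and the call was also lost without corn oil 1. Rtp4 was the fourth call, with no corn oil UMI in pDC and 3.40 and 28.3 CPM in CCl4, and it was lost without 3 of the 4 mice (both corn oil mice and CCl4 2). In T/NK cells the effect was smaller than in endothelial cells for Slfn1 (-2.74, SE 0.40, edgeR adjusted p = 5.81e-06), Slfn8 (-1.91, SE 0.52, edgeR adjusted p = 0.0388) and Ifi206 (-1.51, SE 0.38, edgeR adjusted p = 0.0176), with 1.1% of all genes called smaller and 0.746% larger. Slfn1 kept its call in every alternative, while Slfn8 lost it without each mouse in turn and Ifi206 without each but CCl4 2. It was larger there for Rsad2, at 1.72, 7.93, 78.1 and 12.5 CPM in T/NK cells, and Ifi204, at 15.5, 6.35, 74.8 and 12.5. Both rest on CCl4 1, where 10.2% of 49 cells had a Rsad2 UMI, and without that mouse their edgeR adjusted p was 0.92 and 0.99. Rsad2 also lost its call without corn oil 1, and Ifi204 without corn oil 2. The T/NK gate of CCl4 1 also stood apart in markers of conventional dendritic cells, at 6.86 per 10000 beside 0.223, 0.476 and 1.28 in the other mice, and of neutrophils, at 1.30 beside 0, 0.0159 and 0.281, and the part of such cells was not tested.

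The spread of members over single cells was counted as well. Each cell was thinned to 2000 UMIs, which left out 46 cells of corn oil 2 (28 endothelial, 4 stellate, 4 Kupffer and 10 T/NK). At that depth 97.6% to 98.5% of endothelial cells and 98.4% to 98.5% of CCl4 cells of the monocyte gate held a member UMI. The median was 5, 5, 6 and 6 member UMIs per endothelial cell, 8, 6, 8 and 7 per Kupffer cell, and 2, 1, 8 and 9 per cell of the monocyte gate. Cells with 20 or more member UMIs made up 2.44%, 0%, 9.68% and 11.2% of the monocyte gate, where 0 of 23 cells allows a share of up to 13.04% in counting error. They made up 1.14%, 1.06%, 2.46% and 1.70% of endothelial cells and 0.469%, 0%, 3.95% and 1.35% of Kupffer cells, and 0 of 216 allows up to 1.39%. In the CCl4 monocyte gate the top 10% of cells held 31.4% and 28.5% of the member UMIs and the highest cell 181 and 109 of its 2000. In endothelial cells the top 10% held 25.2% to 25.8% in all 4 mice. In T/NK cells it held 25.3%, 30.8%, 49.5% and 38.3%, with 2 of 49 cells of CCl4 1 at 20 or more. The limit of 20 cuts a continuous range, and 48 and 104 CCl4 cells of the monocyte gate held 18 to 22.

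**Figure D4:**
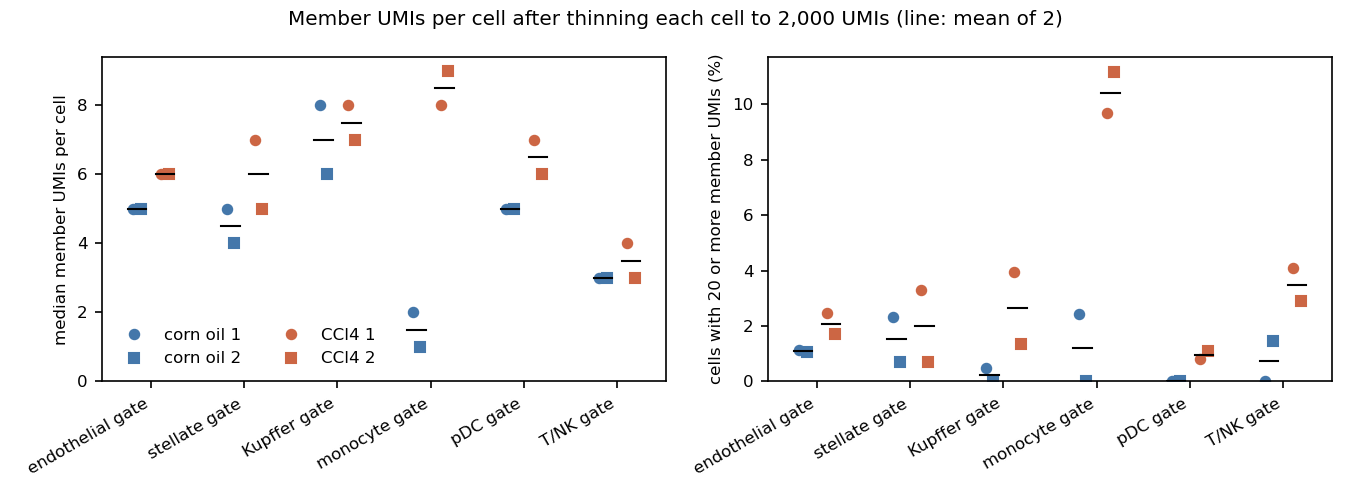
Left, the median number of member UMIs per cell, and right, the percentage of cells with 20 or more, after thinning every cell to 2000 UMIs, by gated class with 1 point per mouse and a line at the mean of 2. The CCl4 monocyte gate has the highest share of such cells, at 9.68% and 11.2%.

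Other genes of the interferon pathway were taken from 7 lists with 91 genes, 74 of which had a column. Of 21 interferon genes 7 had a column, and they gave 11 UMIs in all endothelial cells together, none in the stellate, Kupffer, monocyte and pDC gates, and 73 in T/NK cells, all from Ifng. Ifng, the interferon of T and NK cells, did not pass the test there, with 36, 24, 6 and 7 UMIs (log2 -1.24, edgeR adjusted p = 0.243). Of the 65 genes of these lists that could be tested in endothelial cells, 3 were higher and 2 lower (4.62% and 3.08%), near the 3.12% and 2.75% of all genes. Tmem173, which encodes the DNA-sensing adapter STING, stood at 41.1, 35.3, 153 and 99.9 CPM (log2 1.67, SE 0.24, edgeR adjusted p = 0.0134). Ifitm3, which blocks viral entry, stood at 1299.7, 1285, 2151 and 2093 CPM (log2 0.65, SE 0.13), and the PYHIN gene Ifi211 at 11.5, 12.2, 21.4 and 21.7 CPM. The immunoproteasome subunit Psmb9 was lower, at 27.3, 34.4, 15.6 and 17.9 CPM (log2 -0.95, SE 0.17), and so was the nuclear body protein Sp100, at 399, 454, 277 and 307 CPM (log2 -0.61, SE 0.13). For Tmem173 the call held without each mouse in turn, and the other 4 were lost when either CCl4 mouse was left out, and Ifi211, Ifitm3 and Sp100 also lost theirs without a corn oil mouse.

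Stellate cells had 2 of 57 such genes higher and 2 lower, which is 3.51% each way and below the 5.69% and 5.21% of all genes. Ifitm3 stood at 1990.1, 1613, 3468 and 2853 CPM (log2 0.77, SE 0.20) and Ifi211 at 22.4, 14.8, 62.7 and 37.2 CPM (log2 1.41, SE 0.36). Psmb9 was lower here too, at 44.8, 45.9, 16.3 and 23.1 CPM (log2 -1.30, SE 0.31), as was Irf2, a factor that competes with Irf1, at 309, 224, 137 and 118 CPM (log2 -1.10, SE 0.20). Without CCl4 1 the calls of Ifitm3, Ifi211 and Psmb9 were lost, as was that of Ifitm3 without corn oil 2, and Irf2 kept its own in every alternative.

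Kupffer cells had 1 of 62 higher and 10 lower (1.61% and 16.1%), beside 7.46% and 7.30% of all genes. Cxcl9, a chemokine for T cells that interferon gamma induces, stood at 4.59, 5.52, 45.4 and 29.4 CPM (log2 2.82, SE 0.36, edgeR adjusted p = 0.00212). The receptor subunit Ifngr1 stood at 386, 390.4, 163 and 192 CPM (log2 -1.20, SE 0.15, edgeR adjusted p = 0.00178), and both calls held without each mouse in turn. Irf1, a factor that carries much of the gamma response, stood at 145, 218, 83.4 and 57.1 CPM (log2 -1.44, SE 0.25). Ciita, the master regulator of MHC class II genes, stood at 14.7, 26.0, 5.43 and 4.15 CPM (log2 -2.14, SE 0.41), and Pias1, a negative regulator of cytokine signalling, at 269, 152, 114 and 112 CPM (log2 -0.97, SE 0.22). The groups did not overlap for any of these 5, but Ciita and Pias1 lost their calls when either CCl4 mouse was left out, and Irf1 without CCl4 2. The other 6 genes called lower were Ifnar2, Irf2, Tlr7, Iigp1, Gbp8 and Mndal, with log2 fold changes from -0.94 to -0.66. Markers of conventional dendritic cells, which include the MHC gene H2-Ab1, summed to 9.23 to 21.6 per 10000 in corn oil Kupffer cells and 3.45 to 4.93 in CCl4, and their part in the lower values was not tested.

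In the monocyte gate 22 of 64 such genes were higher and none lower, beside 2.37% and 2.88% of all genes. Among the 22 were Irf1, Irf5 and the receptor subunit Ifngr2. The count is not split by corn oil UMIs and is not given for the cells with monocyte markers. It includes genes that could pass the filter on low counts only through the CCl4 mice. Ifi47, an interferon-induced GTPase, stood at 25.3, 3.87, 195 and 166 CPM (log2 3.27, SE 0.46, edgeR adjusted p = 0.0195), and it was called among the cells with monocyte markers as well. Gbp9 had 3 corn oil UMIs against 596 in CCl4, a ratio of 12.8 (4.36 to 62.3), and Nlrc5, a regulator of MHC class I genes, had 3 against 453, a ratio of 9.74 (3.31 to 47.4). Ifit1bl1 and Ifit3b had no corn oil UMI, which makes them at least 8.81-fold and 6.17-fold higher. With at most 3 corn oil UMIs each, Gbp9, Nlrc5, Ifit1bl1 and Ifit3b could pass the filter only through the CCl4 mice. All of them were not called among the cells with monocyte markers or without CCl4 2, and Nlrc5, Ifit1bl1 and Ifit3b were not called without CCl4 1. In pDC none of 47 tested genes of these lists was called by edgeR or DESeq2, with 4 at an unadjusted edgeR p under 0.05, and in T/NK cells none of 52, with 7.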

How the data were processed

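The deposited tables hold, per the file headers, the count of unique molecules (UMIs) of each gene in each cell, made with the BD WTA Rhapsody Analysis Pipeline 1.9.1, after its correction of molecular identifiers, against GRCm38 with GENCODE vM19. The aligner was not given in the sources used here. Per the labels' protocols, livers were perfused with pronase and collagenase and hepatocytes were spun out. No doublet caller was run, since cells that passed 2 gates were dropped. A doublet within a class was not removed. Nor was a doublet of a Kupffer cell and a monocyte, because the Clec4f limits let no cell pass both gates (0 cells in each library).

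Cells were gated at 5 UMIs of the gate genes for the endothelial, stellate, Kupffer and pDC classes, 3 for the monocyte class (with at most 2 of Clec4f) and 2 for T/NK. Counts were summed per class and mouse and tested with edgeR 4.0.16 in R 4.3.3 (quasi-likelihood, TMM, filterByExpr, Benjamini-Hochberg over all genes of the class), fitted on the 4 mice of 1 class. Interactions used the 8 sums of 2 classes with mouse as a block. Each SE is the absolute log2 value divided by the square root of the quasi-likelihood F statistic, and it is not a spread between mice. The scripts were tested on simulated data. CPM are plain shares of the summed counts, and 1 UMI is worth 0.0338 CPM in the deepest sum and 5.40 in the shallowest. Text names the called members (beyond 8, those of largest fold), the 5 of highest mean CPM in a class, the called members of an interaction (at most 5) and the called pathway genes (at most 5). The members, gates and lists were chosen with earlier results of these data known.

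Alternatives were DESeq2 1.42.0 and its size factors, no filter, at most 15% mitochondrial UMIs, stricter gates (no UMI of another gate in endothelial cells, and at most 1 endothelial gate UMI in the other classes), the replicate number as a block, each mouse left out, and the narrower monocyte set, which was chosen after seeing the data.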

Additional observations from a re-analysis of the deposited data

Results flagged for a closer look

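The CCl4 effect on a member was tested for a difference between classes (edgeR, mouse as a block), and these members passed at an adjusted p under 0.05. All differences are in log2, first class minus second, with 2 mice a group.

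Bst2 differed by 1.43 between stellate and endothelial cells. Between Kupffer and endothelial cells Ifi27l2a differed by -1.04 and Irf7 by -0.69, and Irf7 lost its call without corn oil 1 or CCl4 1, and Ifi27l2a at 15% mitochondrial UMIs.

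Between the monocyte gate and endothelial cells the 5 largest differences among called members were those of Rsad2 (6.53), Ifit1 (6.02), Cmpk2 (5.71), Ifit3 (5.55) and Rtp4 (5.34). Between the monocyte gate and Kupffer cells they were those of Rsad2 (6.28), Ifit3 (5.80), Rtp4 (5.42), Oas2 (5.08) and Ifit1 (4.98). These members had 1 to 3 corn oil UMIs in the gate, so the sizes carry a wide counting error. In the cells with monocyte markers 9 of these 10 calls held, and that of Oas2 against Kupffer cells did not (edgeR adjusted p = 0.0981). Those cells are part of the same gate, so these members have no more corn oil UMIs in them. The held calls are therefore no separate support. Without corn oil 1 the Ifit1 difference from Kupffer cells was 2.76 and was not called.

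In pDC the effect differed from that in endothelial cells by 2.78 for Ifi204, 1.70 for Slfn5 and -1.11 for Irf7. Rtp4 was called in that pair as well, but it had no corn oil UMI in pDC, so the size of its difference is not given. Without CCl4 2 the Ifi204 value was 1.52, and Irf7 lost its call without each mouse in turn. In T/NK cells the effect differed from that in endothelial cells by 2.86 for Rsad2, -2.74 for Slfn1, 2.06 for Ifi204, -1.91 for Slfn8 and -1.51 for Ifi206. Without CCl4 1 the values of Rsad2 and Ifi204 were 1.13 and 0.50. Slfn1 kept its call in every alternative, while Slfn8 lost its call without each mouse in turn.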

How the results depend on the processing

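Numbers here count the members called, with the main count first. Of 117 alternative counts, 70 stayed within 1.5 times the main count and 47 did not. No named gene reversed its direction in 711 values, and 570 kept their call, while 141 lost it, most often without CCl4 1 (35) or CCl4 2 (29). The causes were not tested, except that leaving out a mouse leaves fewer samples.

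Without the filter on low counts the numbers went from 7 to 14 in endothelial, 7 to 11 in Kupffer, 3 to 5 in pDC and 1 to 6 in T/NK cells, and for the interactions from 1 to 4 (stellate against endothelial), 2 to 5 (Kupffer against endothelial) and 4 to 2 (pDC against endothelial). With DESeq2 they were 11 in endothelial, 4 in Kupffer, 1 in pDC and 0 in T/NK cells, and 1 in both the pDC and T/NK interactions with endothelial cells. DESeq2 size factors gave 4 for Kupffer against endothelial cells. At most 15% mitochondrial UMIs gave 1 in pDC and 0 in T/NK cells, 1 for Kupffer and 2 for T/NK against endothelial cells. Stricter gates gave 1 in pDC and 0 in T/NK cells. The cells with monocyte markers gave 16 against 33, and 21 against 32 for the interaction with Kupffer cells.

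Leaving out 1 mouse at a time gave 0 to 11 in endothelial (0 without CCl4 1), 4 to 12 in stellate (12 without corn oil 1), 1 to 14 in Kupffer, 16 to 35 in monocyte-gate, 2 to 3 in pDC and 0 to 4 in T/NK cells. For the interactions with endothelial cells the ranges were 1 to 2 (stellate), 2 to 4 (Kupffer), 15 to 31 (monocyte gate; 15 without corn oil 1), 1 to 3 (pDC) and 1 to 4 (T/NK), and 22 to 35 for the monocyte gate against Kupffer cells. A group left with 1 mouse was assumed to vary like the other.

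Samples share only a replicate number in the labels, and same-numbered mice had deviations correlated from -0.009 to 0.167 over the 6 classes, so the numbers were not taken as pairs. With the replicate number as a block the counts were 14 in endothelial, 4 in stellate, 11 in Kupffer, 33 in monocyte-gate, 5 in pDC and 4 in T/NK cells. Depth limits pDC and T/NK cells most, where 23 and 12 members were under the filter.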

Other observations

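Cells outside the 6 classes also carried members. Kept cells that passed no gate (229 and 330 in the corn oil mice, 734 and 662 in the CCl4 mice) gave 20.3, 9.63, 28.8 and 28.7 member UMIs per 10000. Cells that passed 2 or more gates, which were left out of every comparison, gave 34.4, 29.3, 39.6 and 37.2 per 10000, at a median of 14557.5, 16027, 16335 and 12401 UMIs per cell. Both CCl4 mice lay above both corn oil mice in both sets. The make-up of the cells in 2 or more gates differed between the groups. Those in the endothelial and monocyte gates numbered 10, 12, 169 and 119, and those in the endothelial and Kupffer gates 387, 611, 217 and 101. What part that has in the member share was not tested.

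Interferon transcripts were few in the gated endothelial cells. Ifna13 gave 1 UMI, in CCl4 1, Ifnl2 gave 1 in each CCl4 mouse, and Ifng gave 5, 2, 0 and 1 UMIs. No UMI of Ifnb1 was found in any gate.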
